A study of Homo sapiens with 6 samples.

Results

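The 32 genes described here carry out or control the making of cholesterol and fatty acids under the sterol regulatory element-binding proteins (SREBPs). They were taken by gene symbol from the 58735 genes of the deposited tables: 18 of the sterol branch, 10 of the fatty acid branch and 4 regulators. All 32 had a row in both tables and all 32 passed the filter on low counts. The rule uses gene symbols alone and no measured value.

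RNA-seq libraries came from the line MDA-MB-231, which was derived from a human breast cancer of the triple-negative kind and is labelled as wild type. Both groups were stained with PKH26, a membrane dye that is diluted at each division, and grown for 12 days in high-glucose DMEM with fetal bovine serum. Slow-cycling cells (SCC) were the brightest 1%, and rapid-cycling cells (RCC) were sorted at moderate brightness per the protocol but are labelled as low in dye in the sample characteristics. Each group had 3 biological replicates, and nothing in the labels says whether these were separate cultures. The comparison asks how the slowly dividing, dye-retaining cells differ from the rest of the same line, and the study's title names dormancy and the AP-1 transcription factors. Dye retention is the only measure that sets the groups apart, both come from 1 cell line, and each library is a pool of sorted cells, so a larger share of cells that express a gene and more of its RNA per cell cannot be told apart.

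SREBPs are transcription factors made as precursors in the membrane of the endoplasmic reticulum. When the membrane holds little sterol, the escort protein SCAP carries them to the Golgi, where proteases release the active part. When sterol is plentiful, INSIG proteins hold SCAP back. SREBF2 encodes SREBP-2, which acts mainly on cholesterol synthesis, and SREBF1 encodes SREBP-1, which acts mainly on fatty acid synthesis. Liver X receptors (LXRs) are switched on by oxidised sterols and control the opposite side of sterol balance, export and reduced uptake, as well as SREBF1 itself.

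Summed counts per library ranged from 17655855 to 27831824. SCC replicate 1 stood apart from the other 5 libraries: the chi-square statistic over its degrees of freedom was 28.5 and 21.4 between its counts and those of SCC replicates 2 and 3, and 3.28 to 4.24 for the other pairs within a group. Over all tested genes, its median log2 level relative to the mean of the 6 libraries was -0.16 for genes with under 45% GC in their exons and 0.30 for genes with at least 55%. The line's markers VIM, CD44, AXL, FN1, KRT18 and KRT8 summed to 3128 to 3351 CPM (counts scaled to a common library total) in SCC and 2817 to 2902 CPM in RCC. Among them FN1 differed most, with a log2 fold change of SCC over RCC of 0.49 (edgeR adjusted p = 0.0017). The rest were at 0.03 to 0.26, with adjusted p of 0.069 or more. Of the line's low markers, ESR1, PGR and CDH1 stayed under 1 CPM in every library while EPCAM was at 3.6 to 5.7 CPM. Markers of other cells were low in both groups: 4 of 5 leukocyte, 3 of 4 adipocyte and 3 of 4 fibroblast markers were under 1 CPM in every library, the lists summing to at most 3.08, 2.76 and 16.2 CPM in SCC and 1.57, 1.96 and 11.3 CPM in RCC. The fibroblast sum came almost wholly from COL1A1, at 11.7 to 16.1 CPM in SCC and 8.60 to 11.04 CPM in RCC. Of the 3 endothelial markers, 1 (CDH5) was under 1 CPM in every library. PECAM1 was at 2.13 to 3.24 CPM, and VWF reached 1.09 CPM in RCC replicate 1. The endothelial list summed to 3.32 to 3.73 CPM in SCC and 3.15 to 3.92 CPM in RCC.

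SCC and RCC differed little in these genes. None of the 32 passed edgeR's quasi-likelihood test at an adjusted p of 0.05 over the 15881 genes tested, where 2.07% of all genes passed (1.69% higher in SCC and 0.378% lower). At an unadjusted p of 0.05, 7 of the 32 stood out, against 19.7% of all genes. Of these, 2 were higher in SCC (SREBF1 and PMVK), against 11.4% of all genes, and 5 were lower (HMGCS1, INSIG1, IDI1, MSMO1 and HSD17B7), against 8.27% of all genes. The groups did not overlap for 6 genes that lay lower in SCC (ACAT2, HMGCS1, IDI1, MSMO1, ELOVL5 and INSIG1), against 13.4% of all genes, and for 2 that lay higher (PMVK and SREBF1), against 14.4%. For 24 genes they overlapped. The precision was enough to bound most differences: 31 of the 32 had a 95% interval inside a 1.5-fold change in either direction, with half-widths of 0.14 to 0.32 on the log2 scale. SREBF1 was the exception, with an interval of 0.07 to 0.65.

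DESeq2 called 1 member, HMGCS1, as lower, where it called 0.763% of all genes lower and 2.51% higher, and limma on the FPKM values called 0. Without SCC replicate 1, edgeR called HMGCS1 and INSIG1 as lower in SCC, where 2.1% of all genes were called lower and 3.93% higher. It called the same pair without SCC replicate 2, where 1.59% of all genes were called lower and 3.57% higher. With SCC replicate 3 or any 1 RCC replicate left out, edgeR called 0 members and 107 to 198 genes in all.

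**Figure D1:**
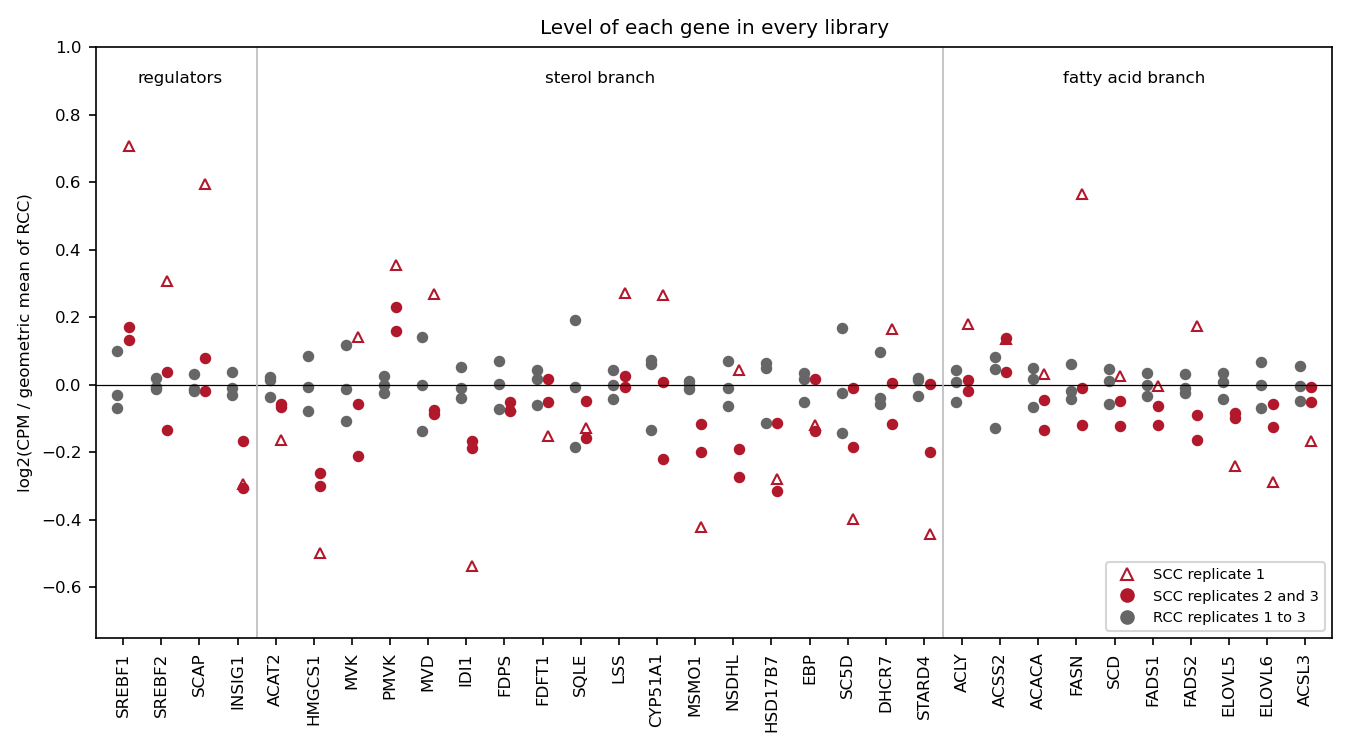
Level of each of the 32 genes in every library, as log2 of CPM over the geometric mean of the 3 RCC libraries (vertical axis), in order of role (horizontal axis). Open triangles are SCC replicate 1, filled red points SCC replicates 2 and 3, and grey points RCC. HMGCS1, IDI1, MSMO1 and INSIG1 have every SCC library under every RCC library, and for SREBF1, SCAP and FASN the open triangle lies far above the other 5 libraries.

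Among the regulators, INSIG1 and SREBF1 had the largest fitted differences. INSIG1 (ENSG00000186480), which retains SCAP in the endoplasmic reticulum and is itself a target of SREBPs, was at 61.2, 66.8 and 60.7 CPM in SCC replicates 1 to 3 and at 73.5, 74.5 and 77.0 CPM in RCC replicates 1 to 3. Every SCC library was under every RCC library. The log2 fold change of SCC over RCC was -0.25 ± 0.07 (SE), a fitted difference of -16.1%, with edgeR adjusted p = 0.10. It was -0.23 (adjusted p = 0.0199) without SCC replicate 1. Under all 20 alternative settings it was below 0, and 4 of them called it, with adjusted p between 0.0199 and 0.302. The settings reuse the same libraries, so they are not independent.

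SREBF1 (ENSG00000072310; GRCh38 chr17:17810399-17837002) was at 270.0, 181.2 and 186.2 CPM in SCC and at 162.1, 157.6 and 177.2 CPM in RCC. All 3 SCC libraries were above all RCC libraries, replicates 2 and 3 by a small margin. SREBF1's fitted log2 fold change was 0.36 ± 0.13 (adjusted p = 0.180). With an offset for GC content it was 0.14, and without SCC replicate 1 it was 0.15. The gene has 61.7% GC.

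SREBF2 (ENSG00000198911) was at 284.3, 209.2 and 235.6 CPM in SCC and at 232.8, 227.5 and 228.8 CPM in RCC. SCC replicates lay on both sides of the narrow RCC range. For SREBF2 the log2 fold change was 0.08 ± 0.10 (adjusted p = 0.657), with an interval of -0.13 to 0.30, and its sign turned with the GC offset (-0.04) and without SCC replicate 1 (-0.05). SCAP, the escort, was at 137.8, 90.2 and 96.5 CPM in SCC and at 90.6, 90.1 and 93.3 CPM in RCC, a log2 fold change of 0.25 ± 0.13 (adjusted p = 0.323). SCC replicate 1 alone lay outside the other libraries' narrow range, and the value was 0.06 with the GC offset and 0.03 without that library.

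The promoters of SREBF2, INSIG1 and HMGCS1 are shown because these genes are textbook members of the SREBP feedback loop and, for the last 2, had the lowest fitted values of the regulators and of the sterol branch. The sequences are RefSeq's upstream bases (GRCh38.p14), each ending just before the gene's first base in the deposited annotation. Capitals mark a sterol regulatory element or its shorter core and the CCAAT box of the factor NF-Y, read on either strand (ATTGG on the other).
SREBF2, chr22:41832855-41833078, plus strand: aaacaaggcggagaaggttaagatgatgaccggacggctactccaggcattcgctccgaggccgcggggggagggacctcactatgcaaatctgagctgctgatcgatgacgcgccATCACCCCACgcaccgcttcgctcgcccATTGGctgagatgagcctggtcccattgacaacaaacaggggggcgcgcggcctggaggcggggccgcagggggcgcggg
INSIG1, chr7:155297628-155297775, plus strand: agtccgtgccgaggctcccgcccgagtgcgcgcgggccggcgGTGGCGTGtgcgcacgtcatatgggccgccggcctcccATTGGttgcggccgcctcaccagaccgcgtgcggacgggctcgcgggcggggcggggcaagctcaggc
HMGCS1, chr5:43313513-43313662, minus strand: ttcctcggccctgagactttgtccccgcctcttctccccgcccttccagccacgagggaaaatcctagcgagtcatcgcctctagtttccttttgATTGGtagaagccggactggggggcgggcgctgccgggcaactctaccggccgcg

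RefSeq windows of 300 bases, from 250 before to 50 after a start, were found for 28 of the 32 genes, 38 windows in all. Both strands were searched, and the longer sterol regulatory element is the core CACNCCAC with AT before it. The longer element was in 1 of the 38 windows (2.63%), that of SREBF2, at positions -134 to -125 from RefSeq's start, which lies inside the deposited gene, and in 0.154% of all 35116 promoters of the table. The core was in 7 windows (18.4%), against 5.87% of all promoters. The members' windows with the core were those of ACACA, IDI1, INSIG1, SC5D, SCD and SREBF2. CCAAT was in 26 windows (68.4%), against 34.6% of all promoters: 15 of 20 in the sterol branch (75%) and 9 of 14 in the fatty acid branch (64.3%). Windows of 1 gene overlap, so these shares are descriptions, and a match is not a measured binding site.

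In the sterol branch, 13 of 18 genes had a log2 fold change below 0, against 49.5% of all genes. Their median was -0.09, beside 0.00 over all genes tested, and none passed the adjusted test. The branch runs from acetyl-CoA through mevalonate to isoprenoid units, squalene, lanosterol and cholesterol. Both of its lowest genes, HMGCS1 and IDI1, act before squalene, and so does its highest, PMVK. The next lowest, MSMO1 and HSD17B7 (each -0.24), act after squalene.

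HMGCS1 (ENSG00000112972; GRCh38 chr5:43289395-43313512, minus strand) encodes the synthase that makes HMG-CoA, the precursor of mevalonate. It was at 62.7, 71.9 and 73.9 CPM in SCC and at 88.2, 93.9 and 83.8 CPM in RCC. Every SCC library was under every RCC library. For HMGCS1 the fitted log2 fold change was -0.35 ± 0.08, a fitted difference of -21.7%, with edgeR adjusted p = 0.0594. The value was below 0 under all 20 alternative settings (-0.41 to -0.25), and 8 of them called it, with adjusted p between 0.0031 and 0.335. Among these were the GC offset (-0.27, adjusted p = 0.0107) and without SCC replicate 1 (-0.28, adjusted p = 0.0031). With SCC replicate 3 or any 1 RCC replicate left out, HMGCS1 was not called (adjusted p 0.098 to 0.264). The settings reuse the same libraries, so they are not independent. The opposite-strand gene AC114947.2 covers 15% of its exons but had only 26 counts over all libraries, beside 10150 for HMGCS1.

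Of the other early enzymes, ACAT2, which joins 2 acetyl-CoA units, had a log2 fold change of -0.10. MVK, the mevalonate kinase, was at -0.04, and MVD, the decarboxylase that forms isopentenyl diphosphate, was at 0.04. PMVK, the phosphomevalonate kinase between them, was the only gene of the branch whose SCC libraries all lay above RCC, against 14.4% of all genes. It was at 30.0, 27.5 and 26.2 CPM in SCC and at 23.4, 23.1 and 23.9 CPM in RCC. Its log2 fold change was 0.25 ± 0.09 (adjusted p = 0.168), and 0.08 with the GC offset. Adjacent steps of the same route had fitted values of opposite sign, none of them past the adjusted test.

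IDI1, the isomerase that balances the isoprenoid units, was at 44.1, 57.0 and 56.2 CPM in SCC and at 62.2, 63.5 and 66.3 CPM in RCC. No SCC library reached the RCC range, and replicate 1 was the lowest. The log2 fold change was -0.29 ± 0.10 (adjusted p = 0.159), and -0.18 without SCC replicate 1. FDPS, which builds farnesyl diphosphate, was at -0.07, and FDFT1, which joins 2 farnesyl units into squalene, was at -0.06. SQLE, the squalene epoxidase and a rate-limiting step of the later pathway, was at 22.6, 22.1 and 23.9 CPM in SCC and at 24.6, 28.1 and 21.7 CPM in RCC. These SQLE ranges overlapped, with a log2 fold change of -0.12 ± 0.11 (adjusted p = 0.538).

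After squalene, LSS, which closes the rings to lanosterol, was at 0.10. CYP51A1, the first lanosterol demethylase, was at 0.03. MSMO1, the C4 sterol methyl oxidase, was at 74.3, 91.9 and 86.8 CPM in SCC and at 98.8, 100.5 and 99.7 CPM in RCC. All SCC libraries of MSMO1 were under the tight RCC range, and its log2 fold change was -0.24 ± 0.08 (adjusted p = 0.161), and -0.13 with the GC offset. NSDHL and HSD17B7 complete the removal of the C4 methyl groups. NSDHL was at -0.13. HSD17B7 was at 14.7, 16.5 and 14.3 CPM in SCC and at 18.4, 18.6 and 16.4 CPM in RCC, with only SCC replicate 2 reaching the lowest RCC library. Its log2 fold change was -0.24 ± 0.11 (adjusted p = 0.246), and its pseudogene HSD17B7P2 drew 380 counts beside its own 2128, so that the split of reads between the copies is uncertain.

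At the end of the route, EBP, the sterol isomerase, was at -0.08 and SC5D, the desaturase, at -0.20. Without SCC replicate 1 SC5D was at -0.10, and with the GC offset at -0.07. DHCR7, the last reductase to cholesterol, was at 0.02, and its sign turned under 8 of 20 settings. STARD4, a sterol carrier protein whose gene SREBP-2 controls, was at -0.20, at -0.10 without that library and at -0.03 with the GC offset. Each of these had overlapping groups.

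**Figure D2:**
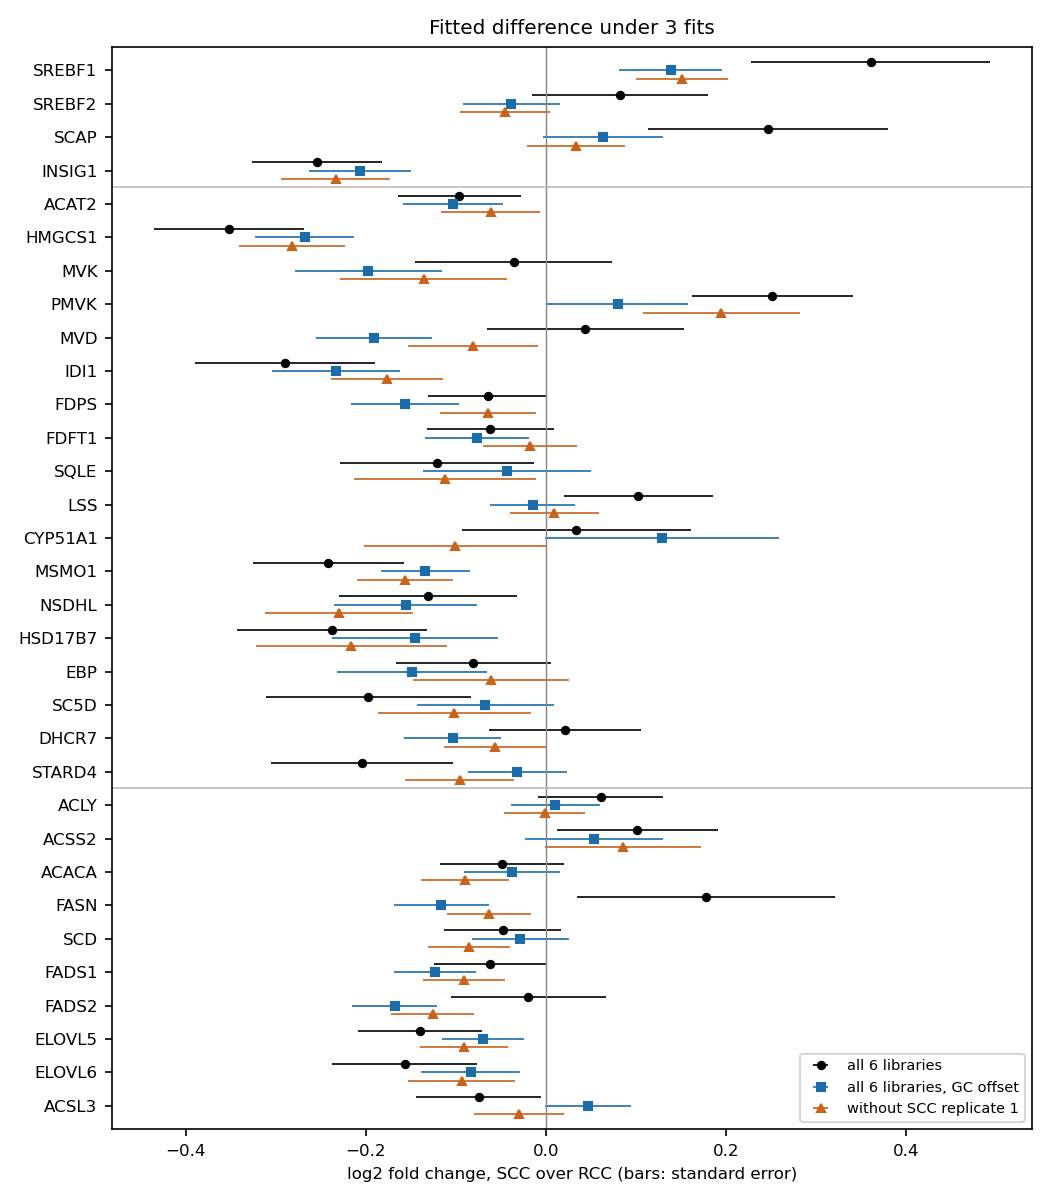
Fitted log2 fold change of SCC over RCC (horizontal axis; bars are standard errors) for the 32 genes, regulators at the top, sterol branch in the middle and fatty acid branch at the bottom. Black circles are the fit of all 6 libraries, blue squares the same with a GC offset, and orange triangles the fit without SCC replicate 1. HMGCS1 and INSIG1 stay near their value in all 3 fits, and FASN, SCAP and SREBF1 move towards or past 0.

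In the fatty acid branch, 7 of 10 genes had a log2 fold change below 0, against 49.5% of all genes. The median of the 10 was -0.05. None of the 10 reached an unadjusted p of 0.05, against 19.7% of all genes. Only ELOVL5 had groups that did not overlap, with SCC lower, against 13.4% of all genes. The enzymes of the branch make cytosolic acetyl-CoA, build palmitate from it, and then desaturate, elongate and activate the product.

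FASN, the fatty acid synthase, was at 1427, 889 and 959 CPM in SCC and at 953, 936 and 1006 CPM in RCC. SCC replicate 1 was far above the other 5 libraries, and SCC replicate 2 was the lowest. FASN's fitted log2 fold change was 0.18 ± 0.14 (adjusted p = 0.501), with an interval of -0.14 to 0.49. FASN has 65.2% GC, the highest of the 32 genes, and its sign turned with the GC offset (-0.12) and without SCC replicate 1 (-0.06). With both changes together it was -0.17 and was called lower (adjusted p = 0.0045).

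ACACA, the acetyl-CoA carboxylase that supplies malonyl-CoA, was at 193.0, 172.2 and 183.0 CPM in SCC and at 191.2, 195.7 and 180.3 CPM in RCC, a log2 fold change of -0.05 ± 0.07 (adjusted p = 0.710). SCD, the stearoyl-CoA desaturase, was at 724, 653 and 687 CPM in SCC and at 734, 716 and 683 CPM in RCC, a log2 fold change of -0.05 ± 0.06 (adjusted p = 0.698). Both genes overlapped between the groups, and their intervals, -0.20 to 0.10 for ACACA and -0.19 to 0.09 for SCD, bound any difference to well under 1.5-fold.

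The acetyl-CoA suppliers ACLY, the ATP citrate lyase, and ACSS2, the acetyl-CoA synthetase, were at 0.06 and 0.10. The polyunsaturated fatty acid desaturases FADS1 and FADS2 were at -0.06 and -0.02. The elongases ELOVL5 and ELOVL6 were at -0.14 and -0.16, and ACSL3, which activates long-chain fatty acids, was at -0.07. FADS1 and FADS2 share 490 exon bases on opposite strands, and the use of strand in counting is not given in the sources used here. For the same reason values are uncertain for ACAT2, which overlaps the abundant TCP1 (63081 counts beside 10157) over 9.23% of its exons. They are also uncertain for FDPS with RUSC1-AS1 over 18.6%, SREBF1 with RAI1 over 6.92%, and MVK with MMAB (2417 counts beside 3463) over 4.72%. CYP51A1 shares 79.4% of its exon bases with AC000120.2 on the same strand, which had 3 counts beside 2879. The values of CYP51A1 are therefore uncertain whatever the use of strand.

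The sterol and the fatty acid branch did not separate. Their median log2 fold changes, -0.09 and -0.05, differed by -0.04, less than the SD of that difference between replicates (0.07). Against the RCC mean, the median of the sterol genes was -0.12, -0.10 and -0.07 in SCC replicates 1 to 3, under the 0.00 of each RCC library. For the fatty acid genes it was 0.03, -0.11 and -0.05 in SCC and 0.03, 0.01 and -0.05 in RCC. Each gene's RCC mean is the reference, so RCC values centre on 0 by construction and all SCC values share that reference. The sterol genes lay slightly lower in all 3 SCC libraries, whereas the fatty acid genes overlapped. Sterol minus fatty acid was -0.15, 0.01 and -0.02 in SCC and -0.04, 0.00 and 0.05 in RCC, so that SCC replicate 1 alone lay outside the RCC range. On GC-adjusted levels it was -0.14, 0.00 and -0.06 in SCC and -0.03, 0.02 and 0.03 in RCC, and SCC replicate 3 lay outside too.

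Levels per transcript length gave a like picture. The summed FPKM of the 18 sterol genes was 267, 270 and 270 in SCC and 283, 291 and 284 in RCC, or 269 ± 1.46 against 286 ± 4.36 (SD, n = 3), without overlap. The sums are not adjusted for GC content, and a small SD of a sum does not mean a small SD of each gene. For MSMO1 the SD in SCC was 3.27. The 10 fatty acid genes summed to 482 ± 42.9 in SCC and 477 ± 7.97 in RCC, with SCC replicate 1 the highest and SCC replicate 2 the lowest. FASN made up 28.3% of the fatty acid sum in SCC replicate 1 and 20.9% to 22.8% in the other 5 libraries. The ratio of the sterol to the fatty acid sum was 0.505, 0.602 and 0.578 in SCC and 0.586, 0.606 and 0.607 in RCC.

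Ratios of the regulators were more spread in SCC than in RCC. SREBF1 over SREBF2 in FPKM was 0.894, 0.815 and 0.744 in SCC and 0.655, 0.652 and 0.729 in RCC. INSIG1 over SCAP was 0.783, 1.31 and 1.11 in SCC and 1.43, 1.46 and 1.46 in RCC. Neither pair of ranges overlapped, and the 2 genes of each pair differ in GC content, whose part in these ratios was not tested.

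Within the cells the 3 main lipogenic enzymes led. Mean FPKM over the 6 libraries was 130 ± 5.51 (SD) for SCD, 109 ± 20.5 for FASN and 107 for ACLY, ahead of ELOVL5 at 37.9, MSMO1 at 31.7 and SREBF2 at 31.1. The lowest were SQLE at 5.51, MVK at 4.07 and HSD17B7 at 3.44. Of the 31 pairs of neighbours in this order, 28 had overlapping libraries, among them SCD with FASN and FASN with ACLY. Together the 32 genes took 0.281% to 0.314% of all FPKM.

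GC content moved with the members' values, above all in SCC replicate 1, where the log2 deviation of the 32 genes correlated with it at r = 0.84. Across the 32 genes the log2 fold change correlated with exon GC at r = 0.78 in the fit of all libraries, at 0.07 with the GC offset and at 0.50 without SCC replicate 1, and the genes of each fit share the same libraries. Of the 12 genes under 45% GC, 11 were below 0 with a median of -0.20. Of the 10 genes with at least 55% GC, 2 were below 0 with a median of 0.09. With the GC offset these medians were -0.08 and -0.07. Under 45% were 8 of 18 sterol and 3 of 10 fatty acid genes, and at least 55% had 5 sterol genes, 2 fatty acid genes and 3 of the 4 regulators. The median GC of the branches was close, at 49.61% and 50.03%. With the offset, 16 of 18 sterol genes and 7 of 10 fatty acid genes were below 0, against 50.7% of all genes. The branch medians were then -0.12 and -0.05. HMGCS1 was the 1 member called, where 1.47% of all genes were called lower and 3.19% higher. Without SCC replicate 1 instead, 16 of 18 and 9 of 10 were below 0, against 50.3% of all genes. The medians were -0.10 and -0.09. With both changes together, HMGCS1, INSIG1, FASN and FADS2 were called lower, where 2.47% of all genes were called lower and 3.99% higher.

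Most single values moved with these settings. With the GC offset, 6 of the 32 log2 fold changes turned sign and 19 more moved by over 1.5 times, and without SCC replicate 1 the numbers were 6 and 17. HMGCS1 and INSIG1 were the 2 genes that moved by less than that under both. Among the genes that moved, ELOVL5 was at -0.07 and ELOVL6 at -0.08 with the offset, and both at -0.09 without SCC replicate 1. Away from 0, NSDHL went to -0.23, SCD to -0.09 and ACACA to -0.09 without that library.

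**Figure D3:**
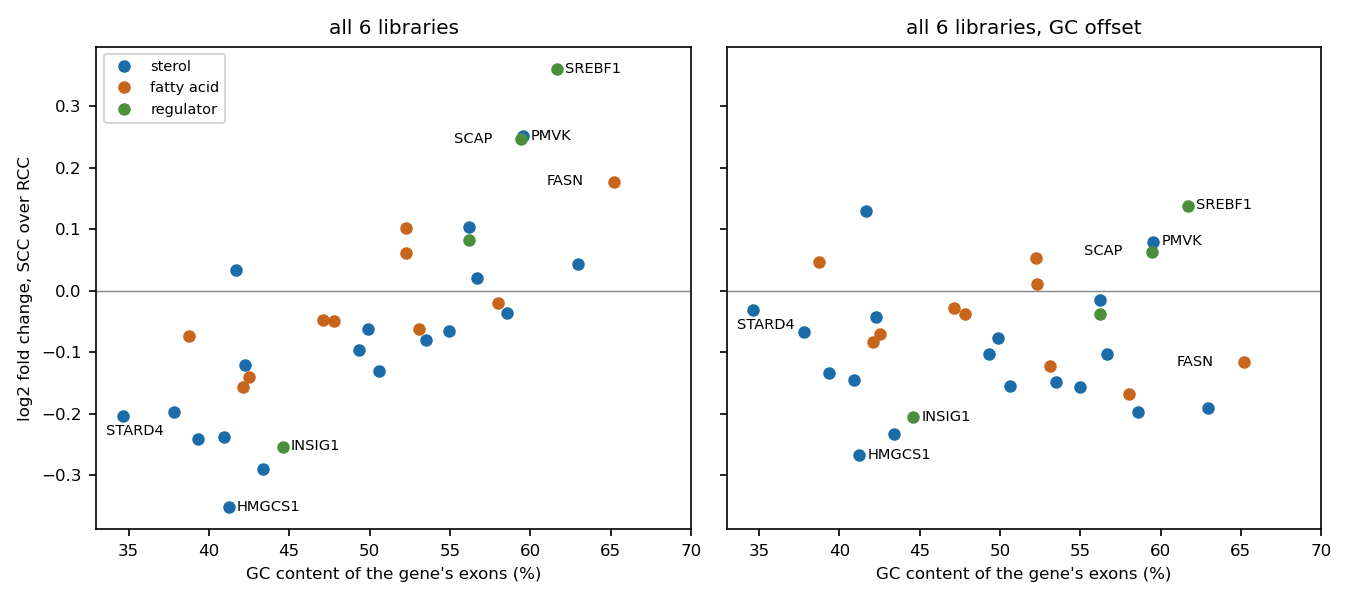
Fitted log2 fold change of SCC over RCC (vertical axis) against GC content of the exons in percent (horizontal axis) for the 32 genes, coloured by branch, with all 6 libraries (left) and with the GC offset (right). On the left the points climb with GC (r = 0.78), and on the right they do not (r = 0.07), while HMGCS1, IDI1 and INSIG1 have the lowest values in both.

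Of 59 other genes of the pathway, 57 were tested (ELOVL4 and THRSP were not). edgeR called 2 as higher in SCC, where 1.69% of all genes were called higher, and 0 as lower. At an unadjusted p of 0.05, 11 of the 57 were higher, against 11.4% of all genes, and 5 were lower, against 8.27%, a share near that of all genes. DESeq2 called 4 as higher, where it called 2.51% of all genes. Both called genes, MYLIP and ABCG1, belong to the list of LXRs and their targets.

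MYLIP (ENSG00000007944; GRCh38 chr6:16129125-16148248), also known as IDOL, is an LXR target that marks lipoprotein receptors for degradation. It was at 39.8, 40.7 and 38.3 CPM in SCC and at 23.9, 21.9 and 22.1 CPM in RCC. The groups were tight and far apart. The log2 fold change was 0.81 ± 0.08, with edgeR adjusted p = 0.0004, and all 20 alternative settings called it (adjusted p 1.9e-11 to 0.011).

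ABCG1 (ENSG00000160179; GRCh38 chr21:42199689-42297244), an LXR target that exports cholesterol, was at 6.3, 7.8 and 5.9 CPM in SCC and at 3.5, 3.4 and 4.6 CPM in RCC. All SCC libraries were above all RCC libraries at these low levels. Its log2 fold change was 0.80 ± 0.18 with edgeR adjusted p = 0.0488, just inside the threshold. The call held in 8 of 18 alternatives (adjusted p up to 0.487) and was lost when any library other than SCC replicate 1 was left out.

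The other 3 genes of that list, the receptors NR1H2 and NR1H3 and the phospholipid enzyme LPCAT3, had log2 fold changes of 0.33, 0.27 and 0.19 and did not pass the adjusted test (adjusted p = 0.164, 0.234 and 0.25). For all 5 genes every SCC library was above every RCC library, against 14.4% of all genes. The median of the 5 was 0.33, and 0.16 with the GC offset. The remaining lists were SREBP processing (11 genes), sterol transport (9), other sterol and prenyl genes (9), other fatty acid genes (18) and glycerolipid steps (5). In that order their medians were 0.01, 0.08, -0.02, 0.05 and 0.20, with no gene called in the fit of all libraries. The lowest values of these genes were those of GRAMD1B, a sterol transporter (-0.35, adjusted p = 0.519), and LBR, a sterol reductase of the nuclear envelope (-0.27, adjusted p = 0.126). GRAMD1B was at 1.4, 1.9 and 1.0 CPM in SCC and at 1.9, 1.6 and 2.0 CPM in RCC, overlapping at a low level. LBR was at 131.9, 158.8 and 156.7 CPM in SCC and at 173.3, 188.7 and 176.0 CPM in RCC, without overlap, and was called lower with the GC offset (-0.19, adjusted p = 0.0435) and without SCC replicate 1 (-0.18, adjusted p = 0.0234). TM7SF2, of the same list of sterol and prenyl genes, lay the other way at 0.57 (edgeR adjusted p = 0.0773). All SCC libraries of TM7SF2 were above all RCC libraries. It was called higher without SCC replicate 1 (0.53, adjusted p = 0.0191) but not with the GC offset (0.35, adjusted p = 0.142). Without SCC replicate 1, NPC2 (0.30), MID1IP1 (0.26) and RNF139 (0.37) were also called higher, and NUS1 (-0.20) lower. That fit called 3.93% of all genes higher and 2.1% lower. With the GC offset alone, NPC2, MID1IP1, RNF139 and NUS1 were not called.

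**Figure D4:**
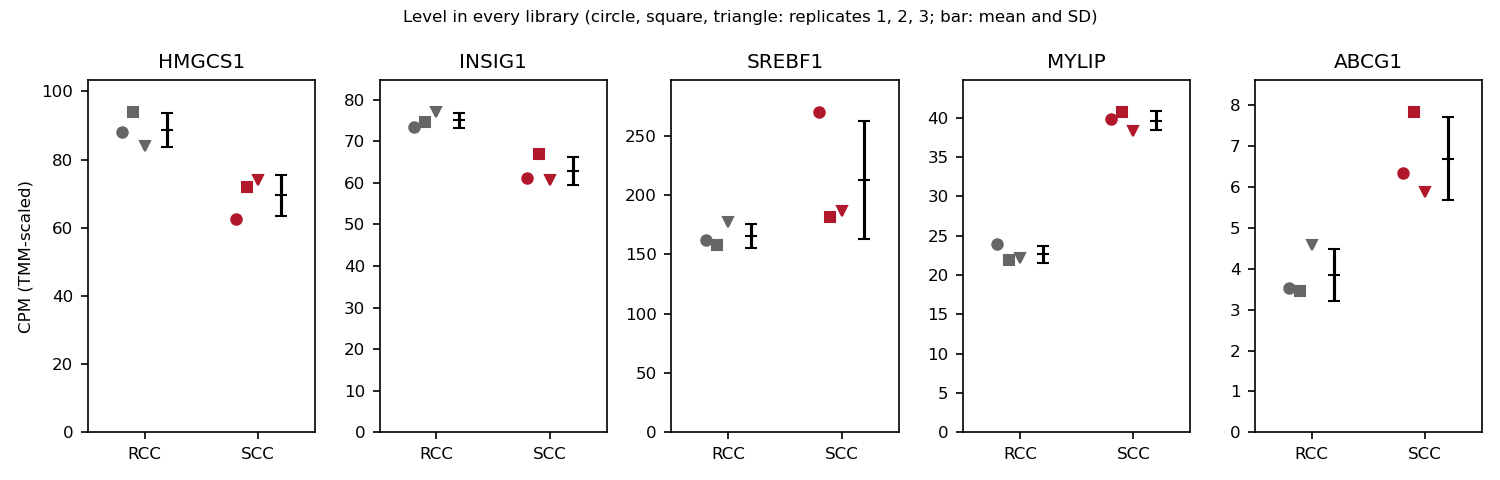
Level in CPM (vertical axes, each starting at 0) of HMGCS1, INSIG1, SREBF1, MYLIP and ABCG1 in RCC (grey) and SCC (red); circles, squares and triangles are replicates 1 to 3, and bars the mean and SD of 3 libraries. MYLIP at 38.3 to 40.7 CPM in SCC is clear of RCC, HMGCS1 and INSIG1 lie lower in SCC, and SREBF1 replicate 1 of SCC lies far above the rest.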

How the data were processed

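The authors deposited raw counts and FPKM for each gene, with its length, in 6 libraries (3 SCC, 3 RCC). The submitters' processing notes name HISAT2 2.0.5 and featureCounts 1.5.0-p3. The genome build, read filters and use of strand are not given in the sources used here. All 58735 deposited gene IDs and positions matched GENCODE release 29 on GRCh38. The authors' FPKM equalled the count over gene length and over 1 constant per library, 0.983 to 1.02 times its summed count.

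Counts were filtered with filterByExpr (minimum count 10), scaled by TMM and fitted with edgeR 4.0.16 in R 4.3.3 (glmQLFit, glmQLFTest, two-sided, Benjamini-Hochberg over all 15881 genes, called at an adjusted p under 0.05). The fit was checked on simulated data. Those data had changes larger than any member's, and neither a GC shift nor a deviating library, so the check does not cover such cases. CPM uses TMM-scaled library totals, and SE is the fold change over the square root of F. A list is described by counts and medians, without a test. The p-values measure only the spread between these libraries, which may be technical.

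The members, the other pathway genes and the markers were chosen with earlier results of these data known. Per-library values are given for the regulators, HMGCS1, SQLE, FASN, ACACA, SCD and members with an unadjusted p under 0.05, and, of the other pathway genes, for those called and those with the 2 highest and 2 lowest fold changes. NR1H2, NR1H3, LPCAT3, TM7SF2, NPC2, MID1IP1, RNF139 and NUS1 were named after their values were seen. Alternatives were DESeq2 1.42.0, limma 3.58.1 on log2(FPKM + 1) and log2(FPKM + 0.1), RLE and upper-quartile scaling, other filters, a replicate block, each library left out, and offsets for gene length or GC content (lowess, span 0.3, GC from GENCODE exons of 58676 genes). The GC offset without SCC replicate 1 was added after seeing the data. All alternatives use the same libraries and are not independent of each other.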

Additional observations from a re-analysis of the deposited data

How the results depend on the processing

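Of 20 alternatives per member, those that changed a count of calls or a sign, or moved a median beyond the replicate spread, follow. Members called lower in SCC numbered 1 with DESeq2, with the GC offset, with every gene of at least 1 count and with the replicate block (HMGCS1, adjusted p = 0.0468, while the block called 456 genes, 315 of them among the 328 called without it), 3 with the replicate block and the GC offset, 4 with the GC offset and without SCC replicate 1, and 0 to 2 with 1 library left out. With every gene of at least 1 count, 1 member (SREBF1) was called higher, and 0 in every leave-one-out fit. Calls over all genes, in either direction, changed with the setting too. They were 328 of 15881 in the main fit, 741 with the GC offset and 1030 with the replicate block and the GC offset. With every gene of at least 1 count they were 1310 of 37596. They were 1055 of 16324 with the GC offset and no SCC replicate 1, and 107 to 985 with 1 library left out. No pairing by replicate number was seen: same-numbered deviations correlated at -0.00912, 0.0249 and -0.0788, and 1 of 6 libraries correlated best with its own number. The deviation of SCC replicate 1 enters these values, so they cannot exclude pairing.

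Other pathway genes called higher numbered 4 with DESeq2, 5 with the GC offset and no SCC replicate 1, 3 with the block, 4 with the block and GC offset, 7 with every gene of at least 1 count, 1 with at least 10 counts in every library, with the length offset (also with the block), with upper-quartile scaling and with each limma fit, and 1 to 6 with 1 library left out (6 without SCC replicate 1). Called lower was 1 (LBR) with the GC offset, alone, with the block or without SCC replicate 1, and with every gene of at least 1 count, and 0 to 2 with 1 library left out. Over all genes, in either direction, 288 of 14323 were called with at least 10 counts in every library and 318 of 15881 with upper-quartile scaling. The length offset called 327 (356 with the block), and the limma fits called 49 to 166.

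The sterol median was -0.12 with the GC offset and -0.11 with the length offset, each with or without the block, and -0.11 to -0.059 with 1 library left out (lowest without SCC replicate 3, highest without RCC replicate 2). The fatty acid median ranged from -0.09 to -0.02, the regulators' from -0.01 to 0.26 and the branch difference from -0.07 to -0.01 in those fits. The regulators' median was -0.061 with the GC offset and no SCC replicate 1.

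Signs of the log2 fold change turned for 11 members, none of them past the threshold with all libraries, and the cause was not tested. With the GC offset, and then with the replicate block added, MVD was -0.19 and -0.19, LSS -0.0146 and -0.0148, DHCR7 -0.104 and -0.103, FASN -0.12 and -0.12, ACSL3 0.0465 and 0.0464, and SREBF2 -0.038 and -0.041. With the GC offset and no SCC replicate 1, MVD was -0.17, LSS -0.033, CYP51A1 -0.068, DHCR7 -0.10, ACLY -0.015, FASN -0.17, ACSL3 0.020, SREBF2 -0.089 and SCAP -0.033. With 1 library left out, MVK ranged from -0.14 to 0.029, MVD from -0.081 to 0.11, CYP51A1 from -0.10 to 0.13, DHCR7 from -0.057 to 0.071, ACLY from -0.0017 to 0.084, FASN from -0.063 to 0.29, FADS2 from -0.13 to 0.032 and SREBF2 from -0.046 to 0.16. Each of these lows came without SCC replicate 1. With the length offset DHCR7 was -0.00074, and with the block added it was -0.0029 and CYP51A1 -0.0039. The members had at least 294 counts in every library.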
